A study of Mus musculus with 13 samples.

Results

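The neighbouring genes Thbd and Cd93 were described through the accessible regions of the stretch of mouse chromosome 2 that holds them. The locus was taken as a 130-kb window of the mm9 genome in which Thbd was placed at about 148.23 Mb and Cd93 at about 148.26 Mb, and every region of the deposited table whose midpoint fell inside it was a member. That gave 17 of the 115295 regions of the table, numbered here 1 to 17 from left to right, which spanned 102 kb. The locus was picked with earlier results of these libraries in view, in which region 8 (chr2:148222720-148223841) was less accessible in PEM-HSC than in MUL-HSC. In that comparison it ranked 4 by p among 59408 tested regions. Comparisons with MUL-HSC are therefore given as a description. Their p-values are not printed, and which members were called in them is stated without being used as support. PLT-HSC was tested against PEM-HSC in the members other than region 8, whose PEM-HSC values had entered the choice.

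The assay was Omni-ATAC-seq on bulk cells. Its transposase cuts DNA that is not packed away and adds sequencing adapters there, so that the count of a region grows with its openness. Haematopoietic stem cells (HSCs) of C57BL/6 mouse bone marrow were compared. Each recipient had been given a single Vwf+ HSC and was grouped by which blood lineages it had regained within 16 weeks, and 500 donor-derived cells went into each library. The 13 libraries were 3 of recipients labelled P-restricted (PLT-HSC), 6 of recipients labelled PEM-restricted (PEM-HSC) and 4 of multilineage recipients (MUL-HSC). All were sorted alike as lineage-negative Sca-1+ c-Kit+ (LSK) Flt3- CD150+ CD48- CD45.2+ Gata1- cells, and all descend from Vwf+ cells, those of MUL-HSC included. The sources used here do not give the number of recipients behind each group, their age or the alleles that report Vwf and Gata1.

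Thbd encodes thrombomodulin, a surface receptor that binds thrombin and turns it towards the activation of protein C, an anticoagulant protease. Cd93 encodes a transmembrane receptor of the same family of C-type lectin-like proteins, known as AA4.1 in the mouse, where it marks early haematopoietic progenitors and immature B cells as well as endothelium and myeloid cells. Accessible regions of a locus fall into promoters, at which transcription starts, and distal elements such as enhancers, which are often open in fewer cell types. In the GRCm38 annotation of RefSeq the genes follow each other along the chromosome as Sstr4, Thbd, Cd93 and Nxt1, with the long non-coding genes Gm39957 before Sstr4 and Gm46770 after Cd93. Region positions are those of the table, in mm9, so no region was assigned to a promoter, exon or intron.

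Library totals were 2378024 to 3307889 counts in PLT-HSC, 1276962 to 3851165 in PEM-HSC and 1307222 to 2831520 in MUL-HSC. Of the 17 members, 9 passed the filter on low counts. The other 8 (regions 1, 2, 4, 5, 6, 12, 14 and 17) held 7 to 76 counts each over all 13 libraries, at most 13 in 1 library, and 8.44% of the counts of the locus together. Fitted without the filter, 0 of these 8 were called in any of the 3 comparisons (edgeR quasi-likelihood test), 0 of 8 had an unadjusted p under 0.05, and their log2 fold changes ran from -1.002 to 1.21. Over the whole table of 115295 regions, that fit called 2078 for PLT-HSC over MUL-HSC, 644 for PEM-HSC over MUL-HSC and 4 for PLT-HSC over PEM-HSC. So few calls make 0 of 8 no result about these members. The share of all regions with an unadjusted p under 0.05 in that fit was not computed. DESeq2 was run on the filtered regions only. Every PLT-HSC library lay above every MUL-HSC library in region 5 (chr2:148205157-148205362), named after its values were seen. It held 3 to 4 counts in a PLT-HSC library and 1 in each MUL-HSC library, or at least 0.976 CPM against at most 0.827 CPM. The share of all regions with this order was not computed, so nothing is read from it. Nothing in the labels says that libraries of a group came from separate recipients, so errors and p-values measure the spread between libraries, which may be technical. In bulk libraries, fewer cells with an open region and less accessibility per cell cannot be told apart.

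The locus had 3 broad regions of more than 1000 bp. In MUL-HSC they were also its 3 strongest, namely region 10 (chr2:148232432-148234257, 1825 bp), region 15 (chr2:148268197-148269662, 1465 bp) and region 8 (1121 bp). Region 10 was the broad region nearest the position given for Thbd and had 2 smaller flanking regions, region 9 to its left, nearer still to that position, at a gap of 66 bp, and region 11 to its right at a gap of 640 bp. Region 15 lay on the far side of the position given for Cd93, with region 14 before it and region 16 after it. Between these groups lay region 13 (chr2:148251353-148252196) and, 4825 bp to its left, the weak region 12. Region 8 lay 8115 bp to the left of region 9, and its own left neighbour, region 7 (chr2:148221465-148221785), was 935 bp away.

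**Figure D1:**
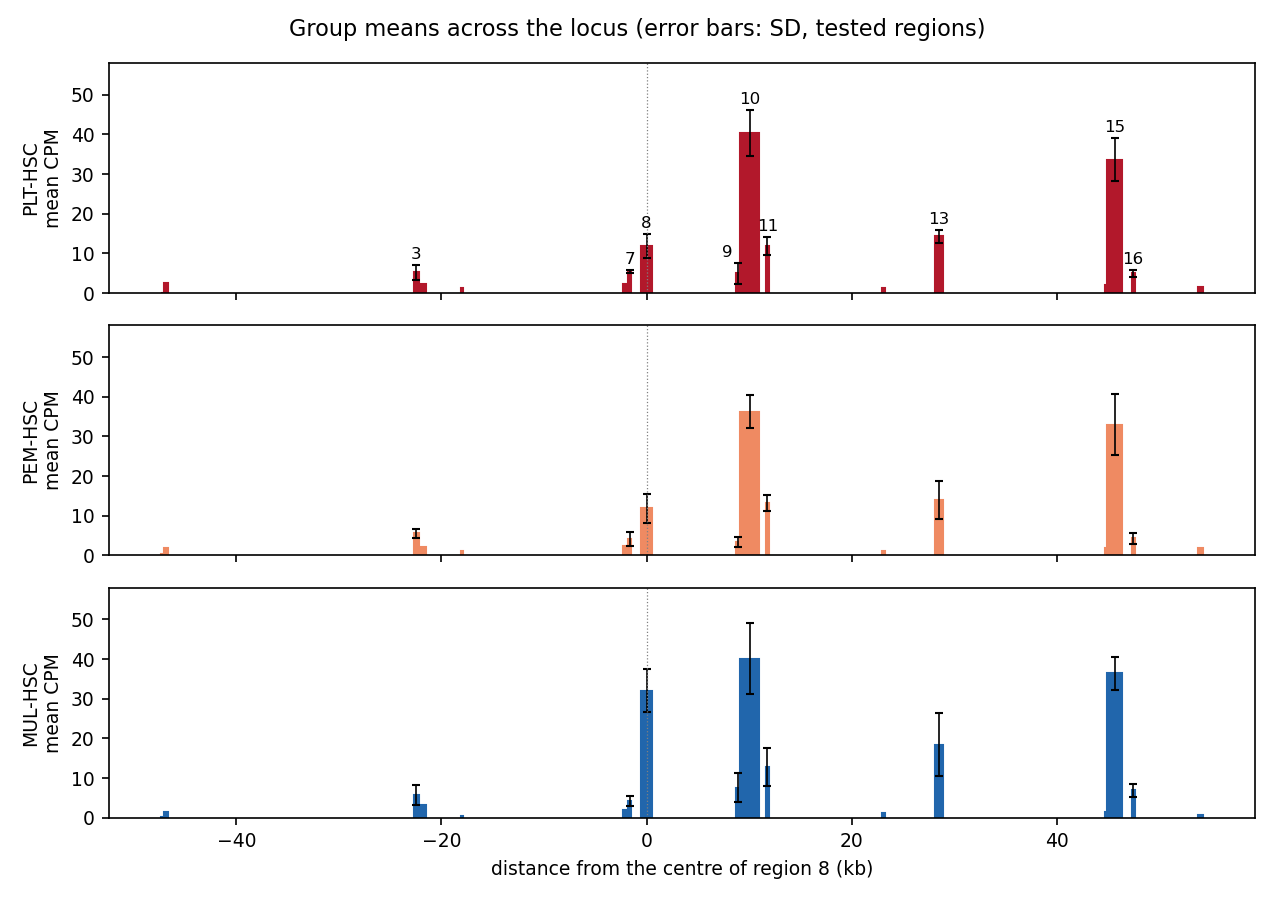
Mean accessibility of the 17 regions in CPM (counts per 1000000 counts in tested regions, with the totals scaled by TMM factors) in PLT-HSC, PEM-HSC and MUL-HSC (top to bottom), drawn to scale at their distance in kb from the centre of region 8, with SD bars for the 9 tested regions, which are numbered in the top panel. Region 8, at 0 kb, averaged 12.0 CPM in PLT-HSC, 11.9 CPM in PEM-HSC and 32.0 CPM in MUL-HSC, while regions 10 and 15 had similar heights in the 3 panels.

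Region 8 was the only tested member in which every MUL-HSC library lay apart from every library of the other groups. In PLT-HSC it had 8.46, 13.5 and 13.9 CPM in replicates 1, 2 and 3. In PEM-HSC its lowest, median and highest values were 6.01, 11.2 and 16.1 CPM. In MUL-HSC it had 39.1, 33.1, 26.6 and 29.4 CPM in replicates 1 to 4. The highest of the 9 libraries of restricted recipients, at 16.1 CPM, thus lay below the lowest MUL-HSC library, at 26.6 CPM. Group means were 12.0 ± 3.03 CPM in PLT-HSC (SD, n = 3), 11.9 ± 3.71 CPM in PEM-HSC (SD, n = 6) and 32.0 ± 5.43 CPM in MUL-HSC (SD, n = 4).

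The fitted log2 fold change of region 8 was -1.42 ± 0.24 (SE) for PLT-HSC over MUL-HSC, or 2.67-fold lower. For PEM-HSC over MUL-HSC it was -1.37 ± 0.20 (SE), or 2.58-fold lower. It was the only member called at an adjusted p under 0.05 (edgeR quasi-likelihood test) in either comparison, 1 of 9 tested regions. Over all tested regions, 1.28% were called lower in PLT-HSC and 0.589% lower in PEM-HSC against MUL-HSC. Every PLT-HSC library lay below every MUL-HSC library in 6.56% of all tested regions, and every PEM-HSC library below every MUL-HSC library in 2.08%. Nothing is read from these counts, since the locus was chosen on region 8 and both comparisons use the same MUL-HSC libraries. Both calls ended when 1 surrogate variable, an estimate of variation that the labels do not record, was added to the fit (log2 fold changes -0.79 for PLT-HSC and -0.87 for PEM-HSC over MUL-HSC), a variable whose variance lay 65.5% between the groups. With it, calls in either direction over all tested regions fell from 1431 to 4 for PLT-HSC and from 494 to 1 for PEM-HSC. The PEM-HSC call also ended, at a log2 fold change of -1.12, without the 5 libraries under 2000000 counts, a fit that kept MUL-HSC replicates 3 and 4. That fit called 7 of all tested regions for PEM-HSC over MUL-HSC.

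MUL-HSC libraries were on average the shallowest, and the part of depth in the difference at region 8 was not tested. Values are given for the 2 pairs of a PEM-HSC and a MUL-HSC library closest in total, which were picked after the values were seen. These pairs hold the 2 MUL-HSC libraries with the lowest totals and the highest values of region 8. MUL-HSC replicates 3 and 4, at 2188436 and 2831520 counts, had 26.6 and 29.4 CPM. PEM-HSC replicate 2 and MUL-HSC replicate 2 had almost the same totals, 1276962 and 1307222 counts. They held 7 and 40 counts in region 8, or 6.01 CPM (95% counting interval 2.42 to 12.4) in PEM-HSC replicate 2 against 33.1 CPM (23.6 to 45.0) in MUL-HSC replicate 2. At totals of 1731365 and 1728184 counts, PEM-HSC replicate 6 had 15.6 CPM (10.1 to 23.1) and MUL-HSC replicate 1 had 39.1 CPM (29.9 to 50.3). These are exact Poisson intervals, which cover counting error only and not the larger spread between libraries of a group. As the reads carry no molecular identifiers and duplicate handling is not given, they may be too narrow even for counting error.

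**Figure D2:**
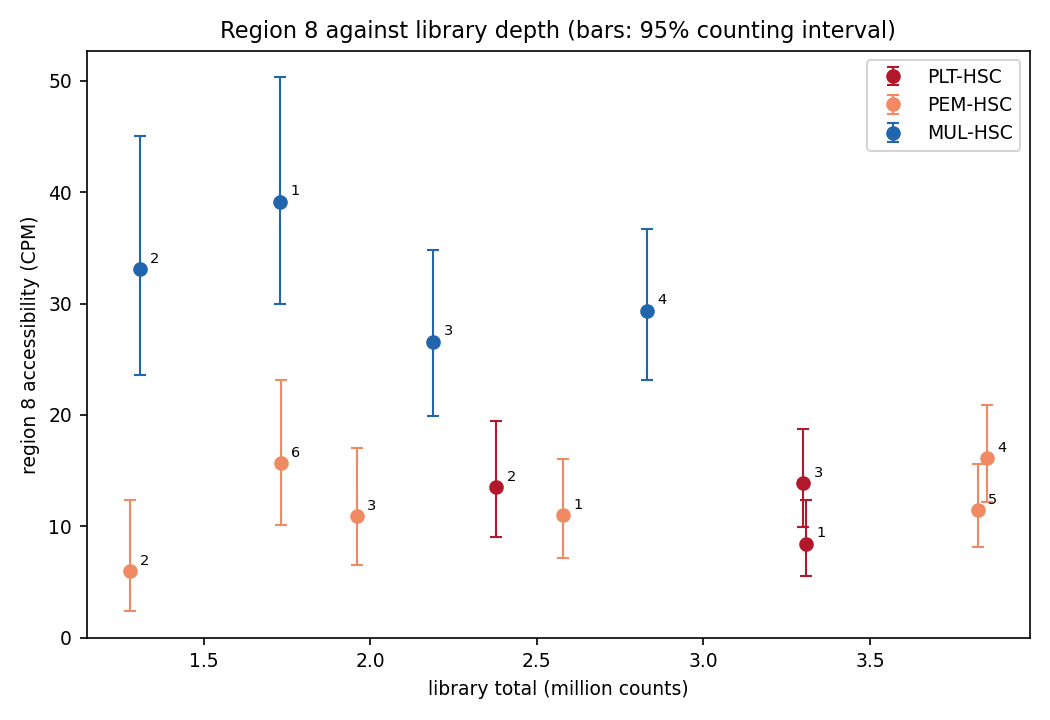
Accessibility of region 8 in CPM against the library total, on an axis in units of 1000000 counts, 1 point per library of PLT-HSC, PEM-HSC and MUL-HSC with its replicate number and an exact 95% counting interval. The 9 PLT-HSC and PEM-HSC libraries lie at 6.01 to 16.1 CPM and the 4 MUL-HSC libraries at 26.6 to 39.1 CPM. The part of depth in this difference was not tested.

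Between PLT-HSC and PEM-HSC, the values of region 8 overlapped. Its log2 fold change was -0.05 ± 0.24 (SE; 95% interval -0.53 to 0.43), given without a p because its PEM-HSC values had entered the choice of the locus. The sign of so small a value turned in several further fits. In these libraries region 8 was higher in MUL-HSC than in the other groups, which is a description, since the locus was chosen on it. PLT-HSC and PEM-HSC were not told apart beyond their spread.

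The level of region 8 relative to its neighbourhood does not depend on how libraries are scaled. For every 100 counts in region 10, the strongest member, region 8 had 23.0, 36.3 and 29.4 counts in PLT-HSC replicates 1, 2 and 3. In PEM-HSC the lowest, median and highest of these ratios were 15.2, 35.1 and 44.2. In MUL-HSC they were 129.8, 65.6, 74.6 and 66.4 in replicates 1 to 4, so the ratios of MUL-HSC did not overlap those of the other groups. They hold the same counts of region 8 on which the locus was chosen. The share of all regions whose ratios part in this way was not computed, so nothing is read from it. Region 8 held 8.16% ± 2.01 of all counts of the locus in PLT-HSC (SD, n = 3), 8.55% ± 2.60 in PEM-HSC (SD, n = 6) and 18.4% ± 2.97 in MUL-HSC (SD, n = 4). Per kb of length it had 10.7 CPM in PLT-HSC and 10.6 CPM in PEM-HSC, against 28.6 CPM in MUL-HSC, where it was denser than region 10 (22.0 CPM per kb) and region 15 (24.9 CPM per kb).

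The whole locus took 13.4 ± 0.866 of every 100000 counts in PLT-HSC (SD, n = 3), 12.7 ± 1.31 in PEM-HSC (SD, n = 6) and 16.1 ± 2.19 in MUL-HSC (SD, n = 4). With region 8 left out the shares were 12.3 ± 0.862 in PLT-HSC, 11.6 ± 1.24 in PEM-HSC and 13.1 ± 2.05 in MUL-HSC, on the same scale. The differences between group means without region 8 were smaller than the SD of MUL-HSC.

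Region 10, the broad region nearest the position given for Thbd, was the strongest member in each group. It had 36.8, 37.4 and 47.2 CPM in PLT-HSC replicates 1, 2 and 3. In PEM-HSC its lowest, median and highest values were 29.6, 36.3 and 41.3 CPM. In MUL-HSC it had 30.2, 50.4, 35.6 and 44.2 CPM in replicates 1 to 4, and the 3 groups overlapped. Its log2 fold change was 0.02 (95% interval -0.29 to 0.34) for PLT-HSC over MUL-HSC and -0.15 (-0.44 to 0.13) for PEM-HSC over MUL-HSC. Between PLT-HSC and PEM-HSC it was 0.18 (-0.11 to 0.47; adjusted p = 0.99999, edgeR quasi-likelihood test). These intervals reach neither of the fold changes of region 8 against MUL-HSC.

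Region 15, beyond the position given for Cd93, also overlapped between the groups. It had 37.7, 27.6 and 35.6 CPM in PLT-HSC replicates 1, 2 and 3. In PEM-HSC its lowest, median and highest values were 21.8, 35.3 and 41.3 CPM. In MUL-HSC it had 31.4, 41.3, 35.1 and 37.7 CPM in replicates 1 to 4, with a mean of 36.4 ± 4.18 CPM (SD, n = 4). Its log2 fold change was -0.10 (95% interval -0.45 to 0.26) for PLT-HSC over MUL-HSC and -0.09 (-0.40 to 0.22) for PEM-HSC over MUL-HSC. Between PLT-HSC and PEM-HSC it was 0.00 on the same scale (-0.32 to 0.32; adjusted p = 0.99999, edgeR quasi-likelihood test).

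Region 13, between the positions of Thbd and Cd93, differed among the libraries of PEM-HSC and of MUL-HSC. It had 12.4, 15.4 and 15.2 CPM in PLT-HSC replicates 1, 2 and 3. In PEM-HSC its lowest, median and highest values were 6.31, 15.2 and 18.6 CPM. In MUL-HSC replicates 1 and 2 had 28.2 and 21.5 CPM and replicates 3 and 4 had 11.5 and 12.6 CPM, so its MUL-HSC mean was raised by replicates 1 and 2. The log2 fold changes of -0.32 ± 0.31 for PLT-HSC and -0.34 ± 0.27 for PEM-HSC over MUL-HSC (SE) turned to 0.22 and 0.33 without the libraries under 2000000 counts, which include MUL-HSC replicates 1 and 2.

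**Figure D3:**
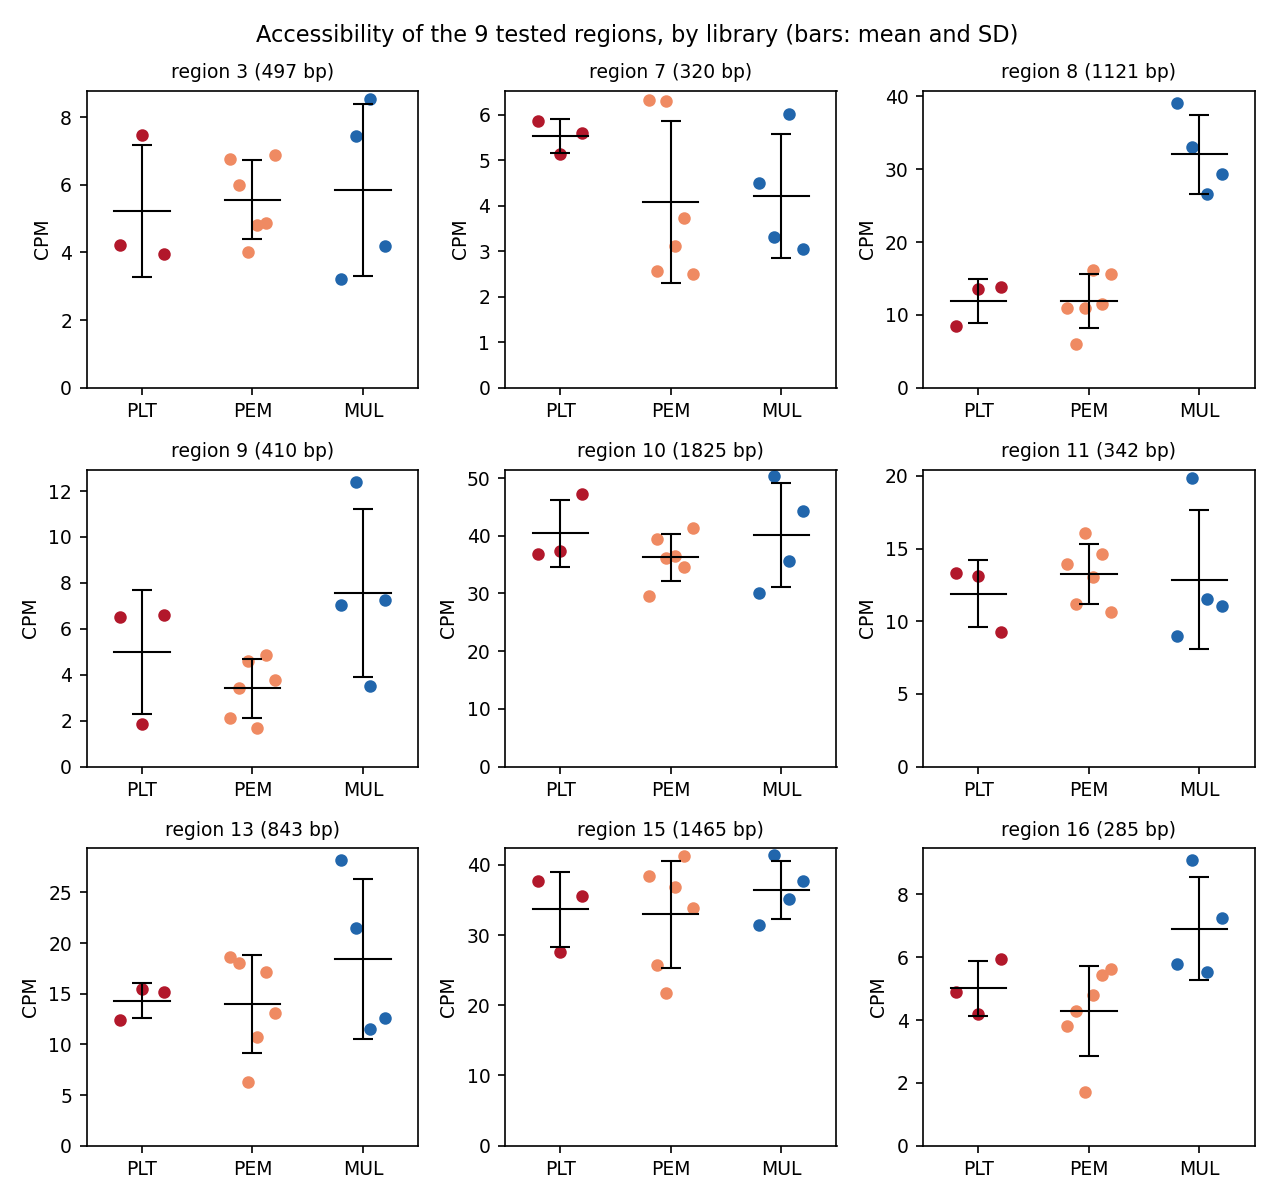
Accessibility in CPM of the 9 tested regions in each library of PLT-HSC, PEM-HSC and MUL-HSC (left to right in each panel), with 1 point per library and bars for the mean and SD. MUL-HSC lies apart from the other groups in region 8, where its libraries have 26.6 to 39.1 CPM and the others 6.01 to 16.1 CPM. The groups overlap in the remaining 8 panels.

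Among the smaller regions, region 9 (chr2:148231956-148232366), which adjoins region 10, had a log2 fold change of -1.10 ± 0.39 (SE) for PEM-HSC over MUL-HSC, the lowest after region 8, and was not called. It averaged 4.99 ± 2.70 CPM in PLT-HSC (SD, n = 3), 3.41 ± 1.29 CPM in PEM-HSC (SD, n = 6) and 7.55 ± 3.66 CPM in MUL-HSC (SD, n = 4). PLT-HSC replicate 2 (1.87 CPM, 4 counts) stood below replicates 1 and 3 (6.51 and 6.60 CPM), and MUL-HSC replicate 3 (3.51 CPM, 7 counts) lay within the range of PEM-HSC. Region 16 (chr2:148270571-148270856), to the right of region 15, averaged 5.01 ± 0.873 CPM in PLT-HSC, 4.28 ± 1.43 CPM in PEM-HSC and 6.91 ± 1.64 CPM in MUL-HSC, and its log2 fold change of -0.63 for PEM-HSC over MUL-HSC had a 95% interval of -1.27 to 0.01. Region 11 (chr2:148234897-148235239) had the highest accessibility per length of the locus, with 34.8 CPM per kb in PLT-HSC, 38.7 in PEM-HSC and 37.6 in MUL-HSC.

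To the left of region 8, regions 7 and 3 passed the filter and were not called against MUL-HSC. Region 7, 935 bp to its left, averaged 5.53 ± 0.365 CPM in PLT-HSC (SD, n = 3), 4.09 ± 1.78 CPM in PEM-HSC (SD, n = 6) and 4.22 ± 1.36 CPM in MUL-HSC (SD, n = 4). Its log2 fold change was 0.39 (95% interval -0.41 to 1.20) for PLT-HSC over MUL-HSC and -0.03 (-0.77 to 0.71) for PEM-HSC over MUL-HSC. Region 3 (chr2:148200582-148201079) had log2 fold changes of -0.18 (95% interval -0.94 to 0.59) for PLT-HSC and -0.07 (-0.74 to 0.60) for PEM-HSC over MUL-HSC. The first of these intervals overlaps that of region 8, which ran from -1.90 to -0.93 for PLT-HSC over MUL-HSC, as do the intervals of regions 9, 13 and 16 there. For PEM-HSC over MUL-HSC the interval of region 8 ran from -1.77 to -0.96. Those of region 9 (-1.90 to -0.31) and region 16 (-1.27 to 0.01) overlap it.

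Over the 9 tested members the median log2 fold change was -0.18 for PLT-HSC over MUL-HSC, against 0.01 over all 59408 tested regions, and -0.15 for PEM-HSC over MUL-HSC, against 0.01. Without region 8, on which the locus was chosen, 6 of 8 members for PLT-HSC and 7 of 8 for PEM-HSC had a negative log2 fold change over MUL-HSC, against 48.6% and 48.1% of all tested regions. Nothing is read from these counts, as both use the same MUL-HSC libraries. Between PLT-HSC and PEM-HSC, 0 of these 8 members were called, against 0.00168% of all tested regions (edgeR quasi-likelihood test). In the same test, 0 of 8 had an unadjusted p under 0.05, against 2739 of all 59408 tested regions. DESeq2 called 0 of the 8 and 0 of all tested regions. Counts of 0 among 8 members are near these shares, so nothing about the locus is read from them. Log2 fold changes of these 8 members for PLT-HSC over PEM-HSC ran from -0.18 to 0.63, and the 95% interval included 0 in 8 of 8. With these intervals, up to 1.47 on the log2 scale at region 9, a difference between PLT-HSC and PEM-HSC is not shown to be absent.

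**Figure D4:**
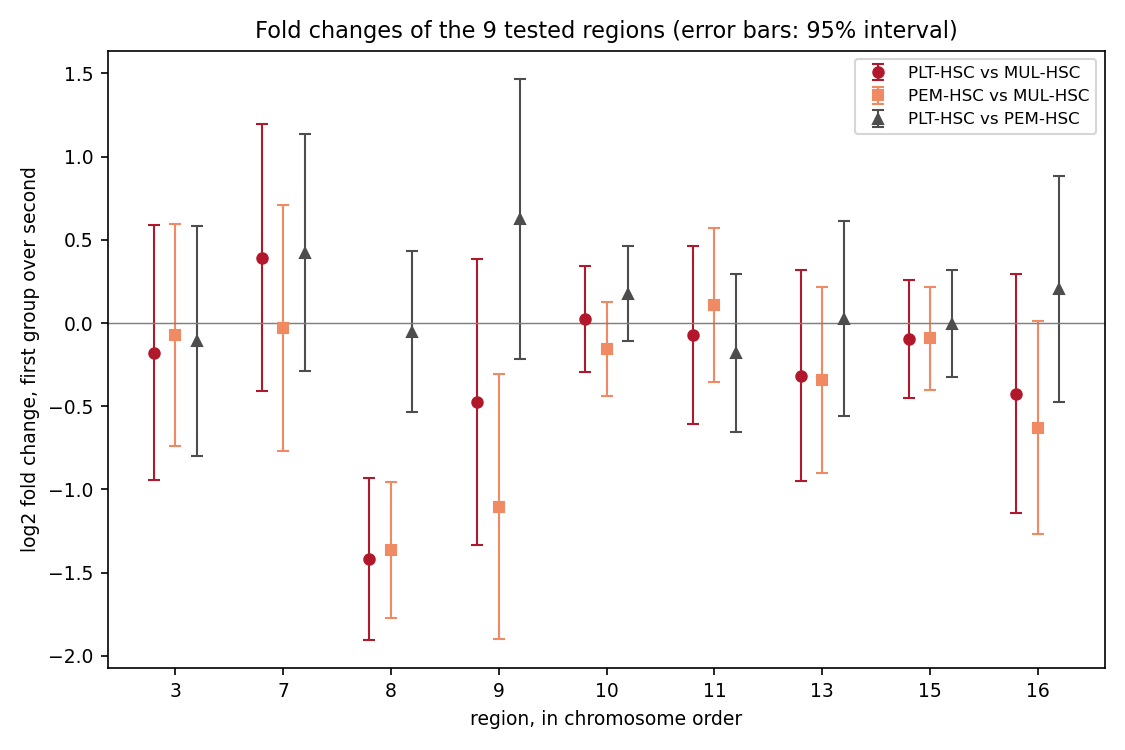
Log2 fold changes (first group over second) of the 9 tested regions in PLT-HSC over MUL-HSC, PEM-HSC over MUL-HSC and PLT-HSC over PEM-HSC, with 95% intervals from the fit over all regions. Region 8 lies at -1.42 and -1.37 against MUL-HSC and at -0.05 between PLT-HSC and PEM-HSC. Region 9 is the only other member with an interval clear of 0, for PEM-HSC over MUL-HSC, where it was not called. In that comparison 8106 of all 59408 tested regions had an interval clear of 0, so nothing is read from it.

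The window's ends did not divide strong regions. The rows just inside it were region 1, with 7 counts over all libraries, and region 17, with 45. The rows just outside held 70 counts on the left (chr2:148163936-148164515) and 34 on the right (chr2:148314694-148314911), and neither passed the filter.

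The regions outside the locus whose log2 CPM followed region 8 most closely over the 13 libraries were found on 5 other chromosomes. Pearson's r was 0.98 for chr9:67115123-67115682, 0.97 for chr1:137610898-137611579, 0.96 for chr12:74982436-74982789, 0.95 for chr11:16951209-16952521 and 0.95 for chr6:127515809-127516636. Each had a lower mean in PLT-HSC and PEM-HSC than in MUL-HSC, for example 16.9 CPM in PLT-HSC and 20.9 CPM in PEM-HSC, against 35.6 CPM in MUL-HSC, for the chromosome 11 region. The points share library depth and the difference between groups, and the highest r of all regions tested is high by selection. The median r over all regions outside the locus was -0.02. With group means taken out, the most alike were chr15:67241554-67241983 (r = 0.96), chr5:117599322-117599745 (0.96), chr8:75188850-75189801 (0.95), the same chromosome 11 region (0.95) and chr5:66496592-66497037 (0.94). Within the locus, r with region 8 ran from -0.10 (region 11) to 0.59 (region 16), and with group means taken out from -0.14 (region 9) to 0.22 (region 15).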

How the data were processed

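The authors deposited raw counts, whole numbers per accessible region, for 13 libraries. The submitters' processing notes name Bowtie2, MACS2, Picard, SAMtools, FastQC and Trim Galore, and the mm9 genome. The sources used here do not give roles, versions, the counting tool, duplicate handling, pooling for peak calling, any shift of read ends, or whether starts count from 0 or 1; widths are end minus start. Regions called mainly in deep libraries would under-represent sites open in shallow ones.

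Counts were analysed with edgeR 4.0.16 in R 4.3.3. Regions passing filterByExpr by group (59408, with 91.4% of counts) entered 1 robust quasi-likelihood fit of all 13 libraries with TMM factors, tested two-sided, with p-values adjusted by Benjamini-Hochberg over the 59408 regions and a threshold of 0.05. Each standard error was obtained as the log2 fold change over the root of F. CPM uses TMM-scaled totals of tested regions, and log2 CPM a prior count of 2. The script was tested on simulated data. The 24 within-group pairs of libraries differed by more than sampling noise (chi-square per degree of freedom 1.44 to 2.46).

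Members, lists and alternatives were chosen with earlier results of these data known. Every tested member was described. For called members and the 3 strongest others, values were given per library in PLT-HSC and MUL-HSC, and as lowest, median and highest in PEM-HSC. Likeness used Pearson's r with the member of smallest p among groups. Lists of protein C pathway, lectin-family and cell type marker genes, and sequence motifs, were not used, since no mm9 annotation or genome was used; the sorted phenotype was not checked against marker genes. Alternatives were DESeq2 1.42.0, totals or RLE factors as scaling, a mean of at least 20 counts, no filter, compared groups alone, a replicate block, no robust estimation, leaving out each library or those under 2000000 counts and, added after seeing the data, 1 surrogate variable (sva 3.50.0) and thinning to the smallest total; the tested regions were kept when libraries were left out.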

Additional observations from a re-analysis of the deposited data

How the results depend on the processing

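The locus was chosen on region 8 in these same libraries, so the calls of region 8 across alternatives describe the settings and are no sign of stability. The number of called members fell to 0 with 1 surrogate variable in both comparisons, and for PEM-HSC also without libraries under 2000000 counts, which left fewer samples. In these fits most calls over all tested regions ended too. Leaving out each library kept 1 called member in both comparisons, with log2 fold changes of region 8 of -1.56 to -1.21 for PLT-HSC and -1.50 to -1.27 for PEM-HSC. Between PLT-HSC and PEM-HSC, 0 members were called in all 24 alternatives. Counts in tested regions as the total, a smaller denominator by construction, raised the locus share in every group. Per 100000 it was then 14.7 in PLT-HSC, 13.8 in PEM-HSC and 17.6 in MUL-HSC. With each library left out, group shares moved to 12.95 to 13.8 (PLT-HSC), 12.3 to 13.1 (PEM-HSC) and 15.0 to 16.7 (MUL-HSC).

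Log2 fold changes of PLT-HSC over PEM-HSC near 0 changed sign; the cause was not tested. Region 15 (-0.00) became 0.0011 by DESeq2, 0.0081 with totals, 0.0087 at a mean of 20 counts, 0.18 with the replicate block and 0.11 after thinning. Region 8 (-0.05) became 0.10 with the block, 0.077 with the surrogate variable and 0.0062 after thinning. Region 13 (0.03) became -0.11 without libraries under 2000000 counts. Thinning moved regions 3, 11 and 16 to 0.34, 0.26 and -0.43. With each library left out the ranges were -0.19 to 0.16 (region 8), -0.41 to 0.058 (region 3), -0.11 to 0.13 (region 13) and -0.10 to 0.11 (region 15). Deviations of 10 same-numbered pairs of libraries correlated at -0.14 to 0.10. Differently numbered pairs were not computed for reference, so whether shared replicate numbers pair libraries was not settled. The replicate block left 1, 1 and 0 members called. Depth limits the 8 members under the filter, of which 0 were called without it.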

Other observations

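The nearest other called region on the chromosome lay 125 kb to the right of region 8, at chr2:148347784-148348235, outside the window. It averaged 1.51 ± 0.531 CPM in PLT-HSC (SD, n = 3), 2.44 ± 0.675 CPM in PEM-HSC (SD, n = 6) and 9.46 ± 4.72 CPM in MUL-HSC (SD, n = 4), with log2 fold changes of -2.51 ± 0.47 for PLT-HSC and -1.83 ± 0.37 for PEM-HSC over MUL-HSC (SE). It held 13 counts over the PLT-HSC libraries, 36 over the PEM-HSC libraries and 66 over the MUL-HSC libraries. Its highest values were 1.98 CPM in PLT-HSC and 3.15 CPM in PEM-HSC, and MUL-HSC ran from 4.51 to 15.7 CPM. The region thus passed the filter on low counts only through MUL-HSC, where it was high, so nothing is read from its calls. Between it and region 8 lay 7 tested regions, none of them called. To the left, the nearest called region was 1525 kb away for PLT-HSC and 19699 kb away for PEM-HSC, and it was more accessible than in MUL-HSC in both.

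Over the 13 libraries, log2 CPM of region 15 and its right neighbour region 16 had a Pearson's r of 0.75, and 0.76 with group means taken out, the highest of the 36 pairs of tested members. Regions 7 and 16 had the lowest, -0.46 and -0.71. The median over pairs was 0.12 and 0.10. These values share library depth and rest on few counts in regions 7 and 16.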
